A study of Mus musculus with 8 samples.

Results

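The genes described are the matrix metalloproteases (Mmp), the ADAM and ADAMTS proteases and the tissue inhibitors of metalloproteases (Timp), taken as every gene symbol in the count table that begins with Mmp, Adam, Adamts or Timp followed by a digit. They numbered 81 of the 22244 genes in the table, with 4 Timp, 24 Mmp, 34 Adam and 19 Adamts symbols, and 1 of the Mmp symbols, Mmp24os1, names an opposite-strand transcript and not a protease. RNA had been sequenced from the lungs (right cranial lobe) of adult C57BL/6J mice, male by the study's design text. One group was injected with naphthalene, an aromatic hydrocarbon that injures the airway club cells that metabolise it, and the other was left without treatment, with 4 mice and 4 libraries in each. No source used here states how much was injected, in which vehicle or how long before sampling, so naphthalene, its vehicle and the injection cannot be told apart.

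Metalloproteases cut proteins with a zinc ion held in the active site. Secreted MMPs degrade collagens, elastin and other matrix proteins and are made as inactive precursors, membrane-type MMPs act at the cell surface, ADAMs release growth factors, cytokines and receptors from cell membranes, and ADAMTS enzymes trim proteoglycans and process procollagens. TIMPs bind the active site of MMPs and block it. Timp3, which stays bound to the matrix, also inhibits several ADAM and ADAMTS enzymes. In the lung these families take part in the turnover of elastic fibres and basement membranes and in the entry of leukocytes after injury.

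Total counts ranged from 10743842 to 16792306 per library. The members together took 0.349% to 0.358% of the counts in controls and 0.432% to 0.547% after naphthalene. Nearly all genes of chromosome 1 were listed at 0 counts in all 8 libraries, 1159 of 1172 by RefSeq positions (98.9%), against 0.659% to 21.3% on each of the other autosomes and the X chromosome. Adamts4, an aggrecan-cleaving enzyme, and Adam23, an adhesion protein, lie on chromosome 1 and were listed at 0, so these zeros give no information on their expression. The groups separated on the first principal component. The mean correlation with the rest of the group was lowest in control 3 among controls (0.985) and in naphthalene 4 and naphthalene 1 after naphthalene (both 0.978). The summed level of 12 neutrophil markers was higher in control 3 than in the other controls, at 407 CPM (read counts scaled to the size of the library) against 115 to 147 CPM. Of this sum, S100a8 and S100a9 gave 127 and 196 CPM. Ltf, of the same list, was lower in control 3 (21.9 CPM) than in the other controls (50.02 to 56.6 CPM).

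Of the 81 members, 57 had enough counts to be tested. By edgeR's quasi-likelihood test with Benjamini-Hochberg adjustment over all genes tested, 12 rose and 10 fell at an adjusted p under 0.05. The 22 called members were 38.6% of those tested, beside 28.7% of all 14192 tested genes. The 12 higher members were 21.1%, beside 14.1% of all genes, and the 10 lower members were 17.5%, beside 14.6%. The median log2 fold change of the tested members was 0.13, beside 0.01 over all tested genes. Among members past the threshold, 5 rose and 5 fell by a log2 value of at least 1, where 2.83% and 5.47% of all genes did. The groups stood fully apart, 4 libraries against 4, for 20 tested members (35.1%, beside 28.6% of all genes), 10 higher and 10 lower, and 4 called members had overlapping groups, Mmp8, Adam12, Adamts2 and Mmp15. The 35 tested members that did not pass had log2 fold changes from -0.94 to 0.85. Every tested member had at least 1 library above the level the filter asks for in each group. In bulk tissue, a change in the number of cells of a type and a change in RNA per cell cannot be told apart.

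**Figure D1:**
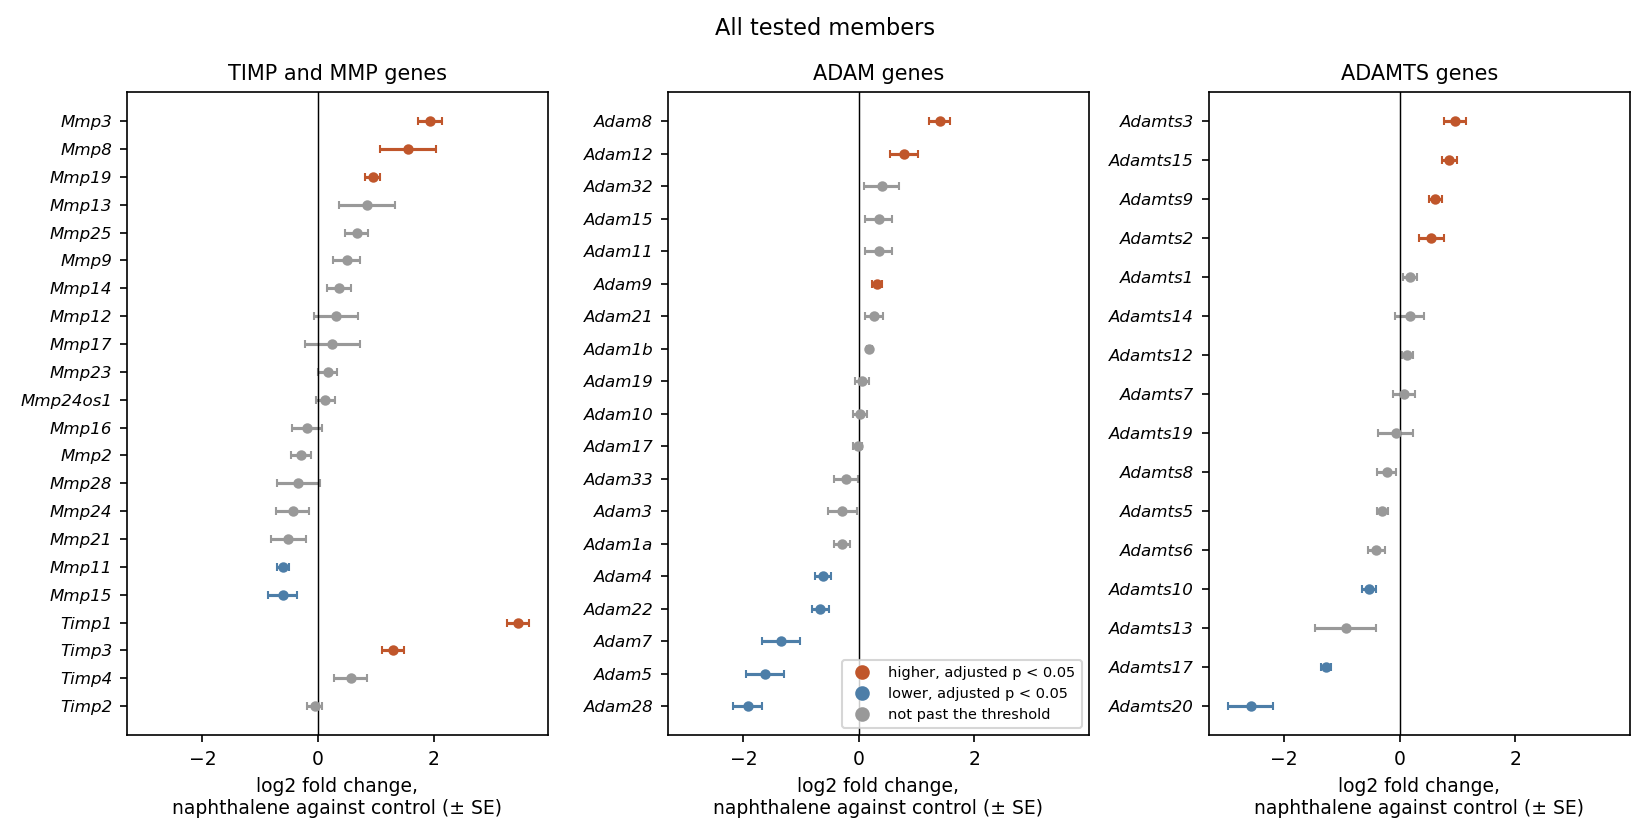
Log2 fold change of naphthalene against control (x axis, positive where the naphthalene level is higher) for each of the 57 tested members, with bars of 1 SE (4 libraries per group), in panels for TIMP and MMP, ADAM and ADAMTS genes. Colour shows the 12 members that rose, the 10 that fell and the 35 that did not pass, with Timp1 the farthest to the right at 3.46 and Adamts20 the farthest to the left at -2.58.

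Among the 4 inhibitors, Timp1 and Timp3 rose, and Timp2 and Timp4 did not pass. Timp1, a secreted inhibitor induced in many injured tissues, was at 3.59, 3.701, 3.08 and 5.16 CPM in controls 1 to 4 and 53.2, 38.9, 38.5 and 42.03 CPM in naphthalene mice 1 to 4. Every naphthalene library was above every control, and the lowest of them, naphthalene 3, stood far above the highest control, control 4. The means, 3.88 ± 0.893 and 43.2 ± 6.88 CPM (mean ± SD, n = 4 per group, here and below), differed by 11.1-fold (log2 fold change 3.46, SE 0.19, adjusted p = 1.42e-06). Timp3, the matrix-bound inhibitor, was at 884, 994, 1144 and 880.1 CPM in controls 1 to 4 and 1885, 2755, 2982 and 1954 CPM in naphthalene mice 1 to 4. Its groups did not overlap either, and naphthalene 2 and 3 were above naphthalene 1 and 4. The Timp3 mean rose 2.45-fold (log2 fold change 1.29, SE 0.19, adjusted p = 0.000323).

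Timp2, an inhibitor that also takes part in activating the precursor of Mmp2 at the cell surface, was at 339, 326, 293 and 312 CPM in controls 1 to 4 and 354, 332, 288 and 246 CPM in naphthalene mice 1 to 4 (log2 fold change -0.06, SE 0.13, adjusted p = 0.745). Its groups overlapped, with naphthalene 1 the highest and naphthalene 4 the lowest of the 8. Timp4 was at 5.11, 6.17, 3.43 and 4.58 CPM in controls 1 to 4 and 9.34, 8.22, 6.24 and 4.58 CPM in naphthalene mice 1 to 4, and naphthalene 4 lay within the control range (log2 fold change 0.57, SE 0.28, adjusted p = 0.11). Without naphthalene 4, Timp4 passed as higher, as it did with voom and quality weights. Each of Timp1, Timp3 and Timp4 lies inside a synapsin gene (Syn1, Syn3 and Syn2) on the opposite strand in GENCODE, and 21.3% of the exon bases of Timp3, none of those of Timp1 and 1.53% of those of Timp4 are shared with exons of the synapsin gene. The strand setting of the counting is not given, so reads in the shared Timp3 bases may not be told apart. Syn3, a neuronal synapsin gene, was at 136 ± 16.8 and 195 ± 25.2 CPM (log2 fold change 0.52, SE 0.13, adjusted p = 0.00752).

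**Figure D2:**
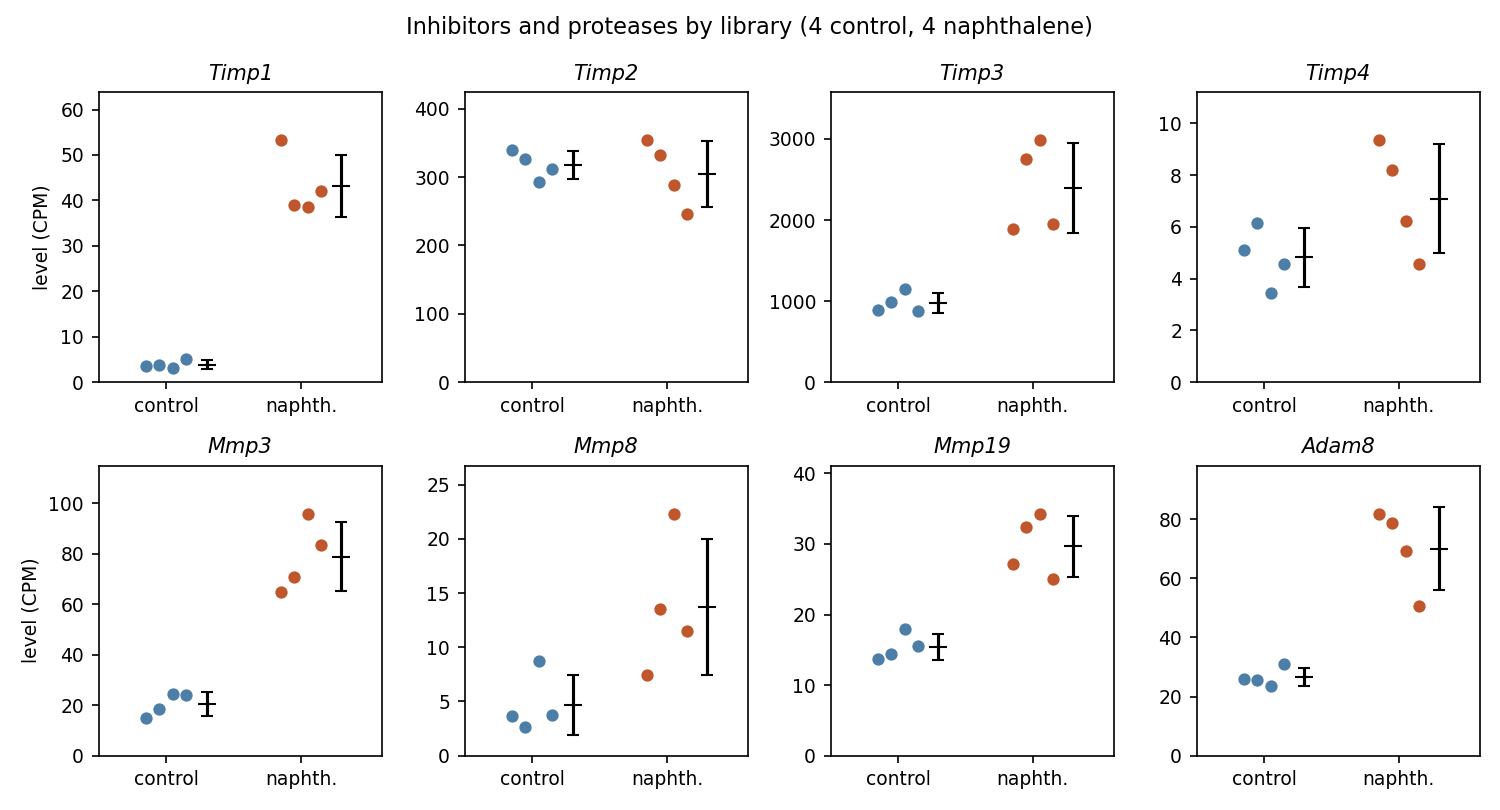
Level in CPM (y axes from 0) of the 4 TIMP genes and of Mmp3, Mmp8, Mmp19 and Adam8 in each library, blue for 4 control and orange for 4 naphthalene libraries, with the mean and SD in black. For Timp1, Timp3, Mmp3, Mmp19 and Adam8 all 4 naphthalene points lie above all control points, while for Timp2, Timp4 and Mmp8 the groups overlap.

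Stromelysins and matrilysin cleave a broad range of matrix proteins and activate other MMP precursors. Mmp3 (stromelysin-1) rose 3.84-fold, the largest increase among the tested MMPs, from 20.5 ± 4.61 to 78.7 ± 13.7 CPM (log2 fold change 1.94, SE 0.21, adjusted p = 4.46e-05). It was at 14.97, 18.4, 24.5 and 24.1 CPM in controls 1 to 4 and 64.9, 70.9, 95.8 and 83.3 CPM in naphthalene mice 1 to 4, with no overlap and naphthalene 3 the highest. Mmp10 (stromelysin-2) was too low to test, with no read in any control and 2, 3, 4 and 3 reads in naphthalene libraries 1 to 4. With the 4 controls together set at 3 counts and the naphthalene reads taken as counted, the ratio was 3.69. Mmp10 passed as higher with DESeq2 and with no filter on low counts. Mmp7 (matrilysin), made by epithelia, was at 0 in every control and at 0, 1, 0 and 1 counts in the naphthalene libraries. Mmp11 (stromelysin-3), which is activated inside the cell by furin, fell from 36.3 ± 2.28 to 23.7 ± 3.06 CPM (log2 fold change -0.61, SE 0.10, adjusted p = 0.00257). It was at 38.995, 37.2, 35.1 and 33.8 CPM in controls 1 to 4 and 27.1, 25.3, 22.2 and 20.2 CPM in naphthalene mice 1 to 4, and every naphthalene value was below every control.

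Collagenases cleave fibrillar collagen. Mmp8 (neutrophil collagenase), stored in neutrophil granules, rose 2.93-fold on the means (log2 fold change 1.56, SE 0.48, adjusted p = 0.0126). It was at 3.68, 2.61, 8.699 and 3.72 CPM in controls 1 to 4 and 7.44, 13.6, 22.3 and 11.5 CPM in naphthalene mice 1 to 4. Control 3 was above naphthalene 1, so the groups overlapped, and the log2 fold change without control 3 was 2.03. The summed level of the neutrophil markers was 115 to 407 CPM in controls and 212 to 529 CPM after naphthalene, with control 3 the highest control. Of 6 tested neutrophil genes, 1 rose, where 14.1% of all tested genes did. The gene that rose was Retnlg, and the most abundant of the list, S100a8 and S100a9, did not pass. Csf3r, Stfa2l1 and Ltf did not pass either, and Ltf had a negative log2 fold change (-1.48). Ly6g, Mpo, Elane, Camp and Ngp had too few counts to be tested, and Cxcr2, on chromosome 1, was listed at 0. The part of neutrophil RNA in the Mmp8 result was not tested. Mmp13 (collagenase-3) was at 0.179, 1.45, 0.615 and 0.573 CPM in controls 1 to 4 and 1.25, 1.17, 1.76 and 1.099 CPM in naphthalene mice 1 to 4 and did not pass (log2 fold change 0.85, SE 0.48, adjusted p = 0.183), except without control 2, while Mmp1a and Mmp1b had at most 3 counts in any library.

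Gelatinases degrade denatured collagen and the type IV collagen of basement membranes. Mmp2 (gelatinase A), a product of fibroblasts, was at 68.04, 66.9, 61.6 and 76.9 CPM in controls 1 to 4 and 63.4, 67.8, 50.9 and 41.4 CPM in naphthalene mice 1 to 4 (log2 fold change -0.29, SE 0.17, adjusted p = 0.164), with naphthalene 1 and 2 inside the control range and naphthalene 3 and 4 below it. Mmp9 (gelatinase B), made by neutrophils and macrophages, was at 8.16, 9.43, 14.8 and 7.95 CPM in controls 1 to 4 and 17.02, 12.9, 11.9 and 14.9 CPM in naphthalene mice 1 to 4 (log2 fold change 0.50, SE 0.23, adjusted p = 0.0917). Control 3 was above naphthalene 2 and 3 for Mmp9, and the gene passed as higher without control 3, without control 3 and naphthalene 1 together, and with voom and quality weights on all 8 libraries.

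Among other secreted MMPs, Mmp19, which cleaves basement membrane proteins, rose 1.93-fold. It was at 13.7, 14.4, 17.9 and 15.5 CPM in controls 1 to 4 and 27.1, 32.4, 34.3 and 24.998 CPM in naphthalene mice 1 to 4, without overlap (log2 fold change 0.95, SE 0.13, adjusted p = 0.000552). GENCODE places 28.3% of its exon bases under exons of opposite-strand genes. Mmp12 (macrophage elastase), which degrades elastin, was at 4.48, 6.24, 7.82 and 4.08 CPM in controls 1 to 4 and 3.45, 6.65, 8.96 and 9.34 CPM in naphthalene mice 1 to 4 (log2 fold change 0.31, SE 0.39, adjusted p = 0.479), with the lowest value of all in naphthalene 1. Mmp12 passed as higher when both control 3 and naphthalene 1 were left out.

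Membrane-type MMPs sit on the cell surface. Mmp15 fell from 129.6 ± 25.7 to 84.7 ± 23.8 CPM (log2 fold change -0.61, SE 0.25, adjusted p = 0.039), with 140.4, 127, 95.1 and 155 CPM in controls 1 to 4 and 116, 87.5, 76.4 and 59.2 CPM in naphthalene mice 1 to 4. Its groups overlapped, since naphthalene 1 was above control 3, and the call was lost without any 1 of 6 libraries, controls 1, 2 and 4 and naphthalene 2, 3 and 4 (adjusted p up to 0.115). Mmp14, the collagenase of the cell surface that activates Mmp2, was at 58.1, 64.4, 47.98 and 61.8 CPM in controls 1 to 4 and 96.5, 80.6, 67.8 and 52.4 CPM in naphthalene mice 1 to 4 (log2 fold change 0.36, SE 0.21, adjusted p = 0.137). It passed as higher without naphthalene 4, which was within the control range, and with voom and quality weights on all 8 libraries. The summed level of the smooth muscle and pericyte markers was also highest in naphthalene 1 and lowest in naphthalene 4 of that group, at 746, 539, 352 and 319 CPM in naphthalene 1 to 4, against 410.1 to 707 CPM in controls. The endothelial markers had the same order, at 5175, 3854, 2823 and 2634 CPM in naphthalene 1 to 4, against 4095 to 4746 CPM in controls. Mmp2 did not share this order, being higher in naphthalene 2 than in naphthalene 1. The fibroblast markers summed to 3612 to 3713 CPM in controls and 2800 to 3323 CPM after naphthalene. Of 12 tested fibroblast markers, 0 rose and 4 fell, where 14.1% and 14.6% of all tested genes did. The part of these cell types in the levels and spread of Mmp14, Mmp15 and Mmp2 was not tested.

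On chromosome 9, 10 Mmp genes follow each other in the RefSeq gene table, in the order Mmp13, Mmp12, Mmp1b, Mmp3, Mmp1a, Mmp10, Mmp8, Mmp27, Mmp20 and Mmp7. Of these 4 were tested, and Mmp3 and Mmp8 rose while Mmp12 and Mmp13 did not pass. Mmp27 was not tested, having 3, 8, 9 and 10 reads in controls 1 to 4 and 24, 19, 8 and 14 in naphthalene libraries 1 to 4. The promoters of 5 of these genes are shown to set the genes that rose beside neighbours that did not pass or were near 0. They run from 250 bases before to 50 after the start in RefSeq on GRCm38, while the counts were made on mm39. Capitals mark TGANTCA, with any base at N, a loose form of the sequence bound by AP-1, the Fos and Jun dimer. It reads the same on both strands apart from its middle base.
Mmp3, chr9:7445572-7445871, plus strand: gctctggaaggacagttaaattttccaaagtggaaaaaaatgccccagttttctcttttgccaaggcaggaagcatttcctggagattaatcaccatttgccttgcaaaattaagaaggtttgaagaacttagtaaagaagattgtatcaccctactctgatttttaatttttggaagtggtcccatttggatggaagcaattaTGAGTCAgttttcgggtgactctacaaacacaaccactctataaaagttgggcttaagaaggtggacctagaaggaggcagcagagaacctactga
Mmp8, chr9:7558179-7558478, plus strand: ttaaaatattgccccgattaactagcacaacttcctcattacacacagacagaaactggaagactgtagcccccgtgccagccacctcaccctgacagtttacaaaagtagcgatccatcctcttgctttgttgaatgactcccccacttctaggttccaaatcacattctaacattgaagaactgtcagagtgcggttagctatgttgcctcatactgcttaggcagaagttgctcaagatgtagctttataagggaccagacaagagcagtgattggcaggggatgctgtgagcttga
Mmp10, chr9:7502092-7502391, plus strand: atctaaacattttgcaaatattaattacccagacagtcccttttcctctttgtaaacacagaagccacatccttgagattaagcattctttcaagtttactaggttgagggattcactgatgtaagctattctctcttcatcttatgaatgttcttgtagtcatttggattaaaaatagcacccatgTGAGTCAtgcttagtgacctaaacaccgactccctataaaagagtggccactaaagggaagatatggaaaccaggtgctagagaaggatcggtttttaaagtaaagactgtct
Mmp12, chr9:7347124-7347423, plus strand: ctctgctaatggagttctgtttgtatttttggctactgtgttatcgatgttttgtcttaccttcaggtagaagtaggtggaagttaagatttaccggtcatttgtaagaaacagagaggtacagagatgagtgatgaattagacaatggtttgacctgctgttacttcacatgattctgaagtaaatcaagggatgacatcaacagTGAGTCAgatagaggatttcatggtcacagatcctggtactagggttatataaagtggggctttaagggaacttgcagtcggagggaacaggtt
Mmp13, chr9:7272264-7272563, plus strand: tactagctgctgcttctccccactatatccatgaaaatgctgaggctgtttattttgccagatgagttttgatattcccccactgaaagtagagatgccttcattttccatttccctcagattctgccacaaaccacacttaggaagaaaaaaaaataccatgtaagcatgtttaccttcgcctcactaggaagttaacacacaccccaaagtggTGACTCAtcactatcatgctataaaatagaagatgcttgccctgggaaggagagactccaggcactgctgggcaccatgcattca
The match begins 46 bases before the start in Mmp3, 63 in Mmp10, 44 in Mmp12 and 35 in Mmp13, and no match is in the window of Mmp8. In all, 8 of the 10 genes of this cluster hold the letters in this window, with Mmp8 and Mmp27 the exceptions. The match reads TGAATCA in Mmp20 and, outside the cluster, in Adam20 and Adam25. In every other member with a match it reads TGAGTCA or TGACTCA. The letters stand in 2425 of all 27025 genes with a promoter entry (8.97%) and in 13 of the 50 members with one (26%). They stood in 1 of 8 higher, 0 of 5 lower, 4 of 21 not past the threshold and 8 of 16 not tested members. A gene with several entries counts as holding the letters if any entry does, and the promoter shown for Mmp12 is the one of its 2 entries that holds them.

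Of 9 tested ADAMs known as active proteases, 3 rose and 1 fell (44.4% called, beside 28.7% of all genes). Adam8, carried by neutrophils, macrophages and eosinophils, rose 2.63-fold from 26.6 ± 3.17 to 70.1 ± 14.1 CPM (log2 fold change 1.40, SE 0.18, adjusted p = 0.000117). It was at 25.997, 25.7, 23.6 and 31.1 CPM in controls 1 to 4 and 81.8, 78.6, 69.3 and 50.5 CPM in naphthalene mice 1 to 4, with every naphthalene value above every control and naphthalene 4 the lowest of its group. The summed level of 12 monocyte and macrophage markers was 5111 to 7156 CPM in controls and 4294 to 7196 CPM after naphthalene. Of these 12 markers, 2 were higher and 3 lower, where 14.1% and 14.6% of all tested genes were. The neutrophil marker sums are given with Mmp8. The part of neutrophil, monocyte and macrophage RNA in the Adam8 result was not tested. Adam12, a protease of activated mesenchymal cells, was at 8.43, 5.95, 5.54 and 7.81 CPM in controls 1 to 4 and 14.7, 12.8, 12.1 and 7.78 CPM in naphthalene mice 1 to 4 and rose (log2 fold change 0.78, SE 0.24, adjusted p = 0.0173), although naphthalene 4 was below control 1 and control 4. Its call was lost without control 2 (adjusted p = 0.0606) and with control 3 and naphthalene 1 both left out (adjusted p = 0.0658). Adam9, a widely expressed sheddase, rose by 0.32 on the log2 scale from 221 ± 21.9 to 275 ± 18.98 CPM (adjusted p = 0.0298), and did not pass when control 1, 2 or 4 or naphthalene 3 was left out (adjusted p up to 0.0988).

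Adam10 and Adam17, the main sheddases of Notch receptors and of tumour necrosis factor and EGF receptor ligands, did not pass. Adam10 was at 198, 192, 241 and 183 CPM in controls 1 to 4 and 186, 196, 200.5 and 241 CPM in naphthalene mice 1 to 4 (log2 fold change 0.02, SE 0.12, adjusted p = 0.933). Adam17 was at 110.4, 117, 129.96 and 117 CPM in controls 1 to 4 and 109.6, 109, 117 and 132 CPM in naphthalene mice 1 to 4 (log2 fold change -0.02, SE 0.08, adjusted p = 0.898). For both genes the groups overlapped, and naphthalene 4 was the highest of the 8 libraries.

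Adam28, a lymphocyte and epithelial ADAM, fell from 47.4 ± 6.93 to 12.6 ± 3.92 CPM (log2 fold change -1.93, SE 0.25, adjusted p = 9.88e-05), the largest fall among the tested ADAMs. It was at 37.8, 46.7, 51.6 and 53.3 CPM in controls 1 to 4 and 8.75, 9.72, 15.6 and 16.3 CPM in naphthalene mice 1 to 4, with the highest naphthalene value, naphthalene 4, well below the lowest control, control 1. Adam7, best known from the epididymis, was at 5.199, 5.15, 5.54 and 6.52 CPM in controls 1 to 4 and 1.19, 1.63, 2.99 and 3.205 CPM in naphthalene mice 1 to 4 and fell by 1.35 on the log2 scale (SE 0.33, adjusted p = 0.00574). In the RefSeq order, Adam7 and Adam28 flank Adamdec1 on chromosome 14, a gene for an ADAM-like decysin of macrophages and dendritic cells. Adamdec1 fell as well, from 13.3 ± 3.38 to 3.398 ± 0.612 CPM (log2 fold change -1.98, SE 0.21, adjusted p = 9.77e-05), so the 3 neighbouring genes were lower together. All 7 tested B cell markers of 8 listed and all 12 T and NK cell markers fell too, with summed B cell levels of 144 to 198 CPM in controls and 46.8 to 80.2 CPM after naphthalene. Cr2, the B cell marker not tested, is on chromosome 1. Of the airway epithelial markers, 8 of 10 for club cells and 9 of 10 for ciliated cells fell, and 1 club cell marker rose. Over all tested genes, 14.6% fell. The part of lymphocyte and airway epithelial RNA in the Adam28 result was not tested.

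**Figure D3:**
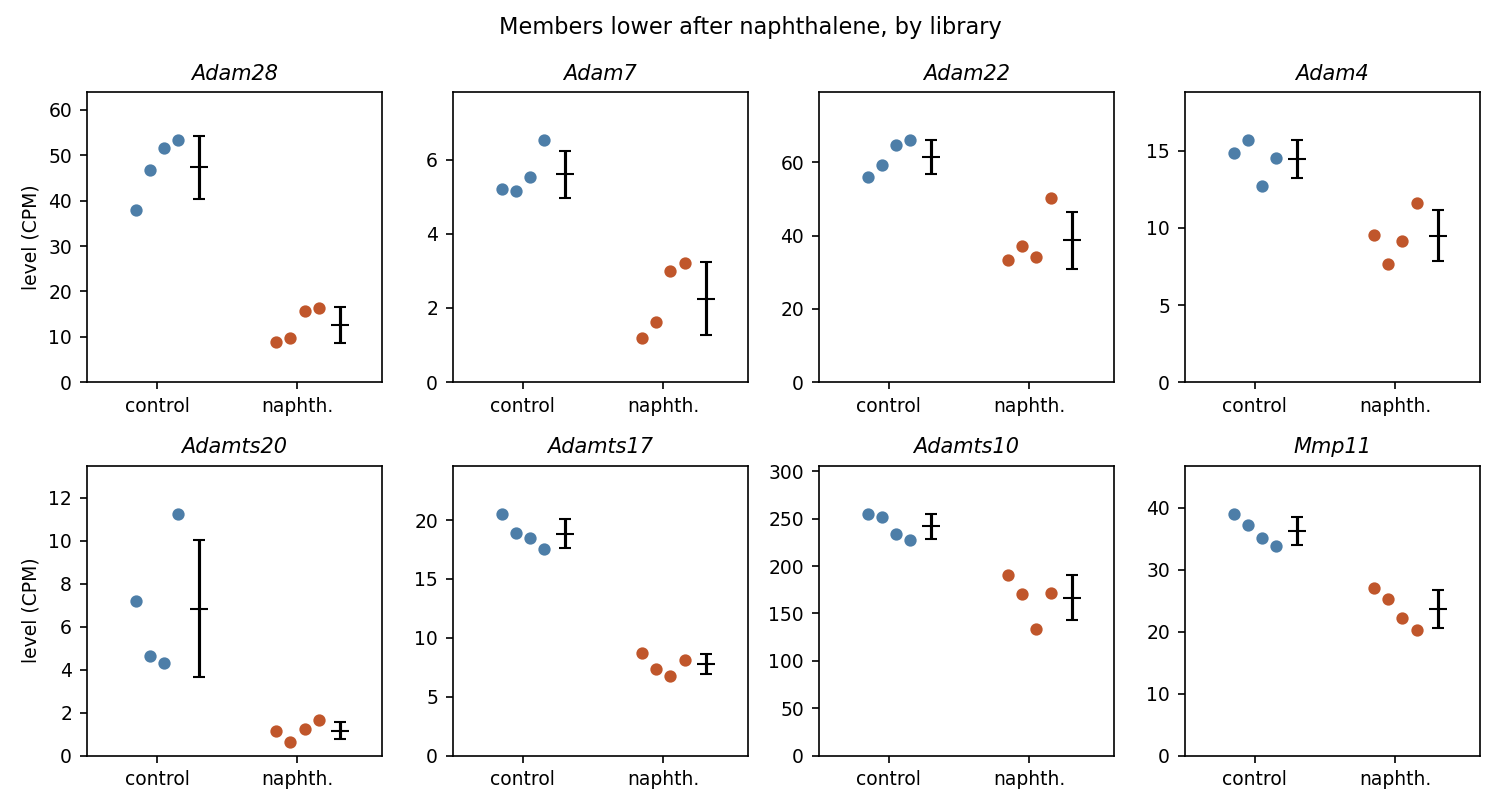
Level in CPM (y axes from 0) of 8 members that fell, in each library, blue for 4 control and orange for 4 naphthalene libraries, with the mean and SD in black. In each panel all 4 naphthalene points lie below all 4 control points, and Adam28, Adamts20 and Adamts17 show the widest gaps between groups relative to their level.

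Other ADAMs that fell are known as adhesion or sperm proteins. Adam22, a receptor for the secreted LGI proteins without protease activity, fell from 61.4 ± 4.68 to 38.7 ± 7.804 CPM (log2 fold change -0.67, SE 0.15, adjusted p = 0.0038), with 55.9, 59.1, 64.6 and 65.96 CPM in controls 1 to 4 and 33.4, 37.2, 34.2 and 50.2 CPM in naphthalene mice 1 to 4. Naphthalene 4 was the highest of its group for Adam22 and still below the lowest control. Adam4, a testis gene that lies within Cox16 on the same strand, was at 14.9, 15.7, 12.7 and 14.5 CPM in controls 1 to 4 and 9.52, 7.63, 9.14 and 11.6 CPM in naphthalene mice 1 to 4 (log2 fold change -0.61, SE 0.14, adjusted p = 0.00977). Cox16, a mitochondrial assembly factor, was at 7.43 ± 0.612 and 6.802 ± 1.49 CPM and did not pass (adjusted p = 0.603). Adam5, a sperm-surface family member at a low level, was at 1.52, 1.45, 2.11 and 1.504 CPM in controls 1 to 4 and 0.476, 0.261, 0.439 and 1.01 CPM in naphthalene mice 1 to 4 (log2 fold change -1.63, SE 0.33, adjusted p = 0.00797). Adam5 lies in a row of Adam18, Adam3, Adam5, Adam32 and Adam9 on chromosome 8, of which Adam9 rose, Adam3 and Adam32 did not pass, and Adam18 was not tested.

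Among 16 tested ADAMTS genes, 4 rose (25%, beside 14.1% of all genes) and 3 fell (18.8%, beside 14.6%). The proteoglycan-cleaving (hyalectanase) enzymes went both ways. Adamts15 rose 1.81-fold (log2 fold change 0.86, SE 0.13, adjusted p = 0.000461), with 105, 77.4, 87.7 and 86.8 CPM in controls 1 to 4 and 148, 175, 182 and 141 CPM in naphthalene mice 1 to 4. Adamts9 rose 1.53-fold (log2 fold change 0.62, SE 0.12, adjusted p = 0.00223), with 105, 107, 92.9 and 103 CPM in controls 1 to 4 and 147, 167, 183 and 129.6 CPM in naphthalene mice 1 to 4. Both had their lowest naphthalene value in naphthalene 4 and no overlap with controls. Adamts20, an enzyme that cleaves versican, fell the most of all tested members, from 6.84 ± 3.201 to 1.17 ± 0.409 CPM (log2 fold change -2.58, SE 0.40, adjusted p = 0.000597). It was at 7.17, 4.64, 4.31 and 11.2 CPM in controls 1 to 4 and 1.13, 0.652, 1.23 and 1.65 CPM in naphthalene mice 1 to 4, and control 4 stood highest among the controls. Adamts1, a versican- and aggrecan-cleaving enzyme, was at 187, 209, 237 and 188 CPM in controls 1 to 4 and 236, 226, 264 and 201 CPM in naphthalene mice 1 to 4 and did not pass (log2 fold change 0.18, SE 0.11, adjusted p = 0.261). Adamts5 did not pass either (adjusted p = 0.0552), although its 4 naphthalene values lay below all controls, and Adamts6 was as near to the threshold (adjusted p = 0.0533). Adamts5 passed as lower in 5 of 16 alternative settings and Adamts6 in 6 of 16, without naphthalene 4 among them.

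The procollagen N-proteinases Adamts2, Adamts3 and Adamts14 remove the amino-terminal propeptide of fibrillar procollagens. Of these 3 genes, 2 rose (66.7%, beside 14.1% of all genes). Adamts3 rose 1.93-fold, with 6.63, 4.72, 5.71 and 4.23 CPM in controls 1 to 4 and 9.76, 8.22, 13.003 and 10.2 CPM in naphthalene mice 1 to 4 (log2 fold change 0.95, SE 0.19, adjusted p = 0.00424). Adamts2 rose from 51.2 ± 5.46 to 74.8 ± 18.5 CPM by 0.55 on the log2 scale (adjusted p = 0.0344), with naphthalene 4 inside the control range. The Adamts2 call was lost without any 1 of 7 libraries, all except naphthalene 4, and with control 3 and naphthalene 1 both left out (adjusted p up to 0.114). Adamts14 did not pass.

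Adamts17 and Adamts10, linked to fibrillin microfibrils, fell. Adamts17 was at 20.5, 18.9, 18.5 and 17.5 CPM in controls 1 to 4 and 8.69, 7.37, 6.77 and 8.15 CPM in naphthalene mice 1 to 4, with little spread in either group (log2 fold change -1.28, SE 0.09, adjusted p = 6.12e-05). Adamts10 was at 255, 252, 233 and 227 CPM in controls 1 to 4 and 191, 171, 134 and 171 CPM in naphthalene mice 1 to 4 (log2 fold change -0.53, SE 0.12, adjusted p = 0.00466). Neither overlapped between groups, and naphthalene 3 was the lowest library for both. Fbn1, the fibrillin-1 gene, rose from 345 ± 17.9 to 473 ± 75.7 CPM (log2 fold change 0.46, SE 0.12, adjusted p = 0.0143). The ADAMTS-like genes went both ways. Thsd4 and Adamtsl3 fell by 0.47 and 0.56 on the log2 scale, and Adamtsl2 rose by 0.56. Adamtsl1, Adamtsl4, Adamtsl5 and Papln did not pass.

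Levels between genes were compared per kilobase of exon, with exon lengths from GENCODE M21 for 79 of the 81 members. In controls the highest levels per kilobase were those of Timp3 (119.8 CPM per kb), Timp2 (81.5), Adam9 (53.6), Adam10 (41.4) and Adamts1 (38.7). Adam10 and Adamts1 were closer than their SDs of 5.23 and 4.44 CPM per kb. After naphthalene the order was Timp3 (294 CPM per kb), Timp2 (78.3), Adam9 (66.9), Timp1 (48.6), Mmp3 (43.7) and Adamts1 (43.7), of which Timp1, Mmp3 and Adamts1 were within their SDs of each other. Timp1 moved from rank 23 to rank 4 of the 79, and Mmp3 from rank 13 to rank 5. Mmp3 per kilobase was at 11.4 in controls, below Mmp15 (24.005) and Mmp2 (20.3), and after naphthalene it was the highest of the MMPs, above Mmp2 (16.6) and Mmp15 (15.7).

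**Figure D4:**
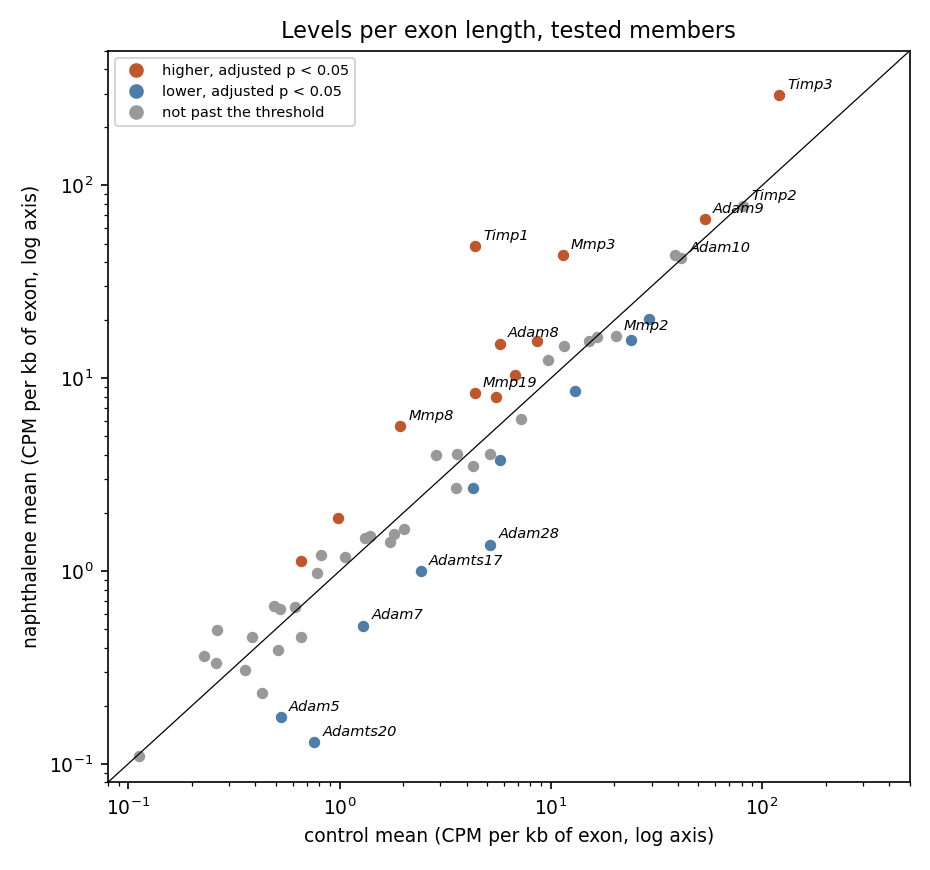
Mean level per kilobase of exon in controls (x axis) and after naphthalene (y axis), both on log axes, for the 56 tested members with an exon length, and a line where both are equal. Timp1 and Mmp3 stand farthest above the line among members of high level, and Adamts20, Adam28 and Adamts17 lie below it.

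Summed over each family, the level of the inhibitors was higher after naphthalene in every library, and those of the proteases differed little. The 4 TIMP genes together were at 1202 to 1444 CPM in controls and 2246 to 3315 CPM after naphthalene, a ratio of means of 2.11. The sums of the MMP, ADAM and ADAMTS genes had ratios of 1.08, 1.06 and 1.08, and each of these sums overlapped between groups. Timp3 carried 71.8% to 79.3% of the TIMP counts in controls and 81.9% to 89.97% after naphthalene, and the sum without Timp3 had a ratio of 1.09. Timp1 made up 0.213% to 0.429% of TIMP counts in controls and 1.16% to 2.31% after naphthalene. The summed TIMP level was 2.78 to 4.09 times the summed MMP level in controls and 4.77 to 7.77 times after naphthalene. These sums are in CPM without a length correction and describe RNA, not protein or activity.

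**Figure D5:**
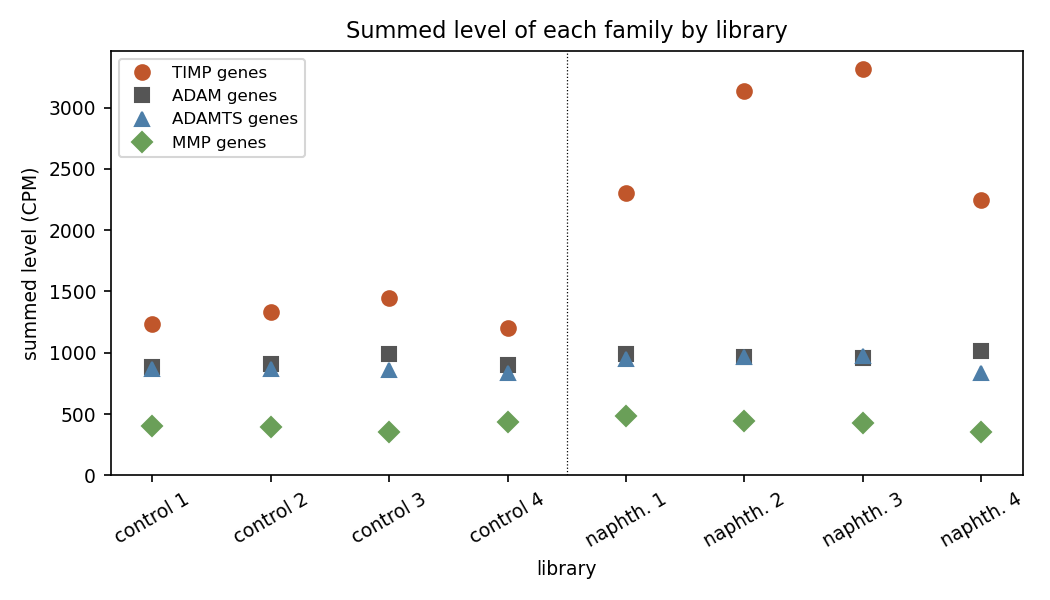
Summed level in CPM (y axis from 0) of the TIMP, ADAM, ADAMTS and MMP genes in each of the 8 libraries (x axis), with control libraries left of the dotted line. The TIMP sums of all 4 naphthalene libraries, 2246 to 3315 CPM, lie above those of all controls, while the other families keep similar levels on both sides.

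The 24 members not tested had at most 24 counts in any library, and 6 were listed at 0 throughout, Adamts4 and Adam23 of chromosome 1 and Adam6a, Adam26a, Adam26b and Adam29. Most belong to the testis-expressed ADAM genes. Adam2 (fertilin beta), a sperm protein, had 2 reads in control 1 and none in the other controls, beside 16, 6, 11 and 8 in naphthalene libraries 1 to 4, a ratio of 18.9 (exact 95% counting interval 4.92 to 162, which covers counting error only). Adamts18 had 3, 3, 5 and 2 reads in controls 1 to 4, all fewer than the 13, 10, 10 and 11 of naphthalene libraries 1 to 4. Both passed as higher with DESeq2 and with no filter on low counts. Adam30 had 0, 3, 3 and 1 against 3, 9, 15 and 6 counts, and Adam6b, a gene within the immunoglobulin heavy chain region, had 6, 3, 3 and 5 against 0, 0, 0 and 3.

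Genes that act with these proteases were counted in 5 lists. Of 21 tested activators, surface partners and clearance factors, 10 rose and 2 fell (57.1% called, beside 28.7% of all genes), with a median log2 fold change of 0.38. A2m, among the 10, was below the level the filter asks for in every control and was tested through its naphthalene libraries alone. Plat and Plaur, a plasminogen activator and the urokinase receptor, had log2 fold changes of 1.24 and 1.55 and passed as higher. Plasmin activates several MMP precursors. Pcolce2, an enhancer of procollagen processing, and Hpse, heparanase, fell by 0.70 and 0.64 on the log2 scale, and without naphthalene 1 the number that fell was 4.

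Among 24 tested membrane proteins shed by ADAMs, 9 rose (37.5%, beside 14.1% of all genes) and 4 fell (16.7%, beside 14.6%), with a median log2 fold change of 0.01. The EGF receptor ligands Ereg, Areg and Hbegf rose most: Ereg from 0.431 ± 0.248 to 16.1 ± 2.41 CPM (log2 fold change 5.17, SE 0.34, adjusted p = 2.22e-06), Areg by 2.80 on the log2 scale and Hbegf from 50.1 ± 4.28 to 142 ± 40.4 CPM. Controls 1 to 4 held 6, 10, 2 and 4 counts of Ereg, all below the level the filter asks for. Ereg thus entered the test, and the 9 that rose, through its naphthalene libraries alone. Its fold change rests on few control counts. The ligand Btc, the Notch ligand Jag1 and the B cell IgE receptor Fcer2a fell, with log2 fold changes of -0.97, -0.45 and -1.64. The number that rose was 5 without naphthalene 2, and the number that fell was 2 without control 4 and 8 without naphthalene 1. Of 8 tested iRhom and tetraspanin genes, partners that bring Adam17 and Adam10 to the cell surface, 1 passed the test and fell (12.5% called, beside 28.7% of all genes). That gene was Tspan33, a tetraspanin of Adam10, at 2.81 ± 0.895 and 1.305 ± 0.505 CPM, and its call was lost without control 1, 2 or 4 or naphthalene 4 and with the replicate number as a block. Without naphthalene 1 the number that fell was 3.

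Of 16 tested matrix substrates 5 rose and 1 fell (37.5% called, beside 28.7% of all genes), with a median log2 fold change of 0.15. Vcan, the versican that hyalectanases cleave, rose from 32.9 ± 9.42 to 136 ± 30.97 CPM (log2 fold change 2.04, SE 0.25, adjusted p = 6.93e-05). Tnc, tenascin C, and Col4a1, a basement membrane collagen, rose by 1.54 and 1.10 on the log2 scale. Bcan, brevican, fell by 0.82. Without naphthalene 1 the number that fell was 4, and without naphthalene 4 it was 2. Fn1, Col3a1, Col5a2 and Lamc1 of this list are on chromosome 1 and were not measured. Of 17 tested ADAMTS-like proteins and other zinc metalloproteases 3 rose (17.6%, beside 14.1% of all genes) and 5 fell (29.4%, beside 14.6%), with a median log2 fold change of 0.09. Bmp1, the procollagen C-proteinase, rose from 73.9 ± 5.93 to 119.95 ± 7.16 CPM (log2 fold change 0.70, SE 0.07, adjusted p = 0.000294), Pappa, which cleaves IGF-binding proteins, rose by 1.01 and Adamtsl2 by 0.56. Tll1, a relative of Bmp1, fell by 0.64 on the log2 scale, and Adamdec1 is given above.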

How the data were processed

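Lung RNA of 8 mice, 4 per group, was made into stranded total RNA libraries, per the labels' protocols. The authors deposited raw read counts per gene. The submitters' processing notes list, without role or order, the build mm39 and the tools featureCounts 2.0.6, HISAT2 2.2.1, edgeR 4.2.1 and Trim Galore 0.6.7. The sources used here do not give the annotation, the strand setting or the treatment of multi-mapping reads.

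Genes with enough counts (filterByExpr in edgeR 4.0.16, minimum count 10, minimum total 15) were scaled by TMM and tested with the quasi-likelihood test on group alone, with Benjamini-Hochberg adjustment over all 14192 genes and a threshold of 0.05. Levels are CPM (counts scaled to library size) with TMM scaling. The SE belongs to the difference between groups in mean log2 CPM (prior count 2). Intervals and floors (3 counts) cover counting error only. Each library is from 1 mouse, per the labels' protocols. No 2 libraries of a group agreed within sampling noise.

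The members and gene lists were chosen with earlier results of these data known. Per-library values are given for the TIMP genes, for up to 10 higher and 10 lower members with the smallest p and for 14 fixed members, and other called members with their fold change. Alternatives were other scalings (RLE, upper quartile), other filters, DESeq2 1.42.0, limma 3.58.1 (voom), a replicate block and leaving out each library. The fit was tested on simulated counts. Promoters are RefSeq's on GRCm38.p6, for 50 of 81 members. The planned search for protein motifs was not run, and no protein is shown. Some genes of the related lists are counted but not reported by name here.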

Additional observations from a re-analysis of the deposited data

Results flagged for a closer look

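In 112 groups of 4 libraries (56 named genes, 2 groups each), 4 had a library far from the other 3 by Dixon's ratio of gap to range, above its 95% critical value. Chance flags about 1 in 20 groups. Control 3 was the highest control for Adam5 (ratio 0.8895), at 2.11 CPM against 1.45 to 1.52 CPM. It was also the highest control for Vcan (ratio 0.874), at 46.9 CPM against 27.1 to 29.6 CPM. Naphthalene 4 was the lowest of its group for Col4a1 (ratio 0.958), at 1140.4 CPM against 2082 to 2123 CPM. Naphthalene 3 was the highest of its group for Adamdec1 (ratio 0.834), at 4.31 CPM against 2.98 to 3.20 CPM.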

How the results depend on the processing

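The number of members called was 22, with 22 to 31 under other scalings, filters and tools and 19 to 27 with each library left out. In all 16 settings 18 of the 22 calls were kept, 9 higher and 9 lower, and the other 4, Adam9, Adam12, Adamts2 and Mmp15, lost their call in some settings. No result reversed. The replicate numbers showed no clear pairing of the mice, though the correlations cannot exclude one. Same-numbered deviations correlated at 0.287, 0.033, 0.184 and -0.093, and only control 1, naphthalene 1 and naphthalene 3 correlated best with their own number. With the replicate number as a block 24 members were called, Adamts5 and Adamts6 in addition, and of the iRhom and tetraspanin list 1 rose and 0 fell.

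With voom and quality weights, 5 activators and partners fell, 1 iRhom or tetraspanin gene rose, 8 shed proteins fell, 2 matrix substrates fell, and 5 ADAMTS-like and other metalloproteases rose. With control 3 and naphthalene 1 both left out, chosen after seeing the data, 3 iRhom or tetraspanin genes, 8 shed proteins and 6 matrix substrates fell. With each library left out, the number that fell was 2 to 4 for activators and partners, 0 to 3 for iRhom and tetraspanin genes, 2 to 8 for shed proteins and 1 to 4 for matrix substrates. The number that rose was 0 to 1 for iRhom and tetraspanin genes and 5 to 9 for shed proteins. The cause was not tested. The untested members had at most 24 counts in any library, and the part of depth and of expression in this was not tested. The zeros of Adamts4 and Adam23, on chromosome 1, give no information on expression.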
